A study of Sus scrofa with 22 samples.

Results

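Blood mononuclear cells, the lymphocytes and monocytes of the circulation, carry surface proteins that are catalogued by cluster of differentiation (CD) numbers. The genes described here are the porcine genes whose symbol is CD, a number and at most 2 letters. The genes CD3D, CD3E, CD3G, CD4, CD8A, CD14, CD40, CD55, CD58, CD74, CD79B, CD86 and CD163 have such symbols too and were left out. Of the 6765 genes that a single-symbol probe set stood for on the array, 41 matched the symbol rule, 13 of those were left out, and 28 remained. Each gene was represented by its brightest probe set over all arrays. By role, 6 act in T and NK cell adhesion and signalling, 6 are tetraspanins, 7 are myeloid, scavenger or antigen-presenting molecules, 3 are widely expressed adhesion and self-recognition molecules, 2 are complement regulators and 2 are B cell molecules. The last 2 are CD40LG, the ligand through which activated T cells stimulate CD40, and CD5L, a secreted protein of the scavenger receptor family.

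As background, CD molecules let leukocytes recognise, hold and instruct one another. T cells adhere through CD2, which binds CD58 on the partner cell, and signal through a receptor complex whose zeta chain is CD247. Costimulation comes through pairs such as CD27 with CD70, CD40LG with CD40, and CD80 or CD86 with CD28. Tetraspanins organise receptors into membrane domains, CD46 and CD59 protect a cell from its own complement, and CD47 tells phagocytes to spare it.

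The arrays came from mini pigs, 1 array per blood sample, 22 arrays of 20 animals in all. At time 0, the start of the feeding experiment, there were 5 females and 5 males, labelled as control animals on normal chow. The 9-month arrays covered 3 diets with 4 pigs each, equally split by sex. Control animals ate chow with 5% tallow and high-fat animals chow with 20%. The third group received the 20% chow together with the plant polyphenol resveratrol, dosed daily at 8 mg/kg of body weight. Pigs 8 and 25 were measured both at time 0 and on the control diet. The other 9-month animals had no array at time 0. With 1 array per animal and group, the p-values measure the spread between animals together with that of handling.

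The labelled cell type was checked against marker genes. The T cell marker CD3E (mean log2 intensity 11.89 over all arrays), the B cell marker CD79B (9.92) and the monocyte marker CD14 (9.09) were bright. The granulocyte markers were mixed. ELANE (5.22), LTF (5.69), S100A8 (4.96), S100A12 (4.97) and MMP9 (4.58) were dim, while S100A9 was bright (8.60). The platelet marker ITGA2B (9.46) and the erythroid marker ALAS2 (10.80) were also bright in a fraction that is meant to hold few platelets and red cells. No probe set was named for MS4A1, NKG7, NCR1, CSF1R, MPO or PF4. Intensities of the poly-A transcripts spiked into each sample parted the arrays into sets at each time. The mean log2 intensity of these controls was 8.28 to 8.32 in set A (2 time 0 females), 6.96 to 7.20 in set B (the other 8 time 0 arrays), 7.67 to 8.21 in set C (7 arrays of 9 months) and 9.00 to 9.58 in set D (5 arrays of 9 months). Set C held both females of the control diet, and set D both of the high-fat diet. The 3' minus 5' difference of the actin controls, which grows as transcripts are shortened, was 0.79 to 2.45 at time 0 and 1.05 to 3.09 at 9 months.

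All values below are log2 intensities, and all differences are log2 differences with the standard error (SE) of the fit. A difference passed when its adjusted p was under 0.05 over all 17240 probe sets tested. Mean levels ran from 4.52 for CD209, a lectin of dendritic cells, to 12.30 for CD53, a tetraspanin of leukocytes. The other ends of the range were CD1E (4.82), a lipid-presenting molecule, and CD200 (4.87), a ligand that restrains myeloid cells, against CD63 (12.24) and CD83 (11.94). Brightness also depends on the probes, so these levels do not rank the genes by RNA. CD209 was above 5 on 1 array only and was not tested, which left 27 genes. CD1E passed the filter through 2 high-fat males, CD200 was above 5 on 5 arrays and CD5L on 15, and the other 24 tested genes were above 5 on all 22.

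Time separated these genes more than any diet did. Between time 0 and 9 months on the control diet 14 of 27 genes passed, 8 higher and 6 lower, where 35% of all probe sets passed (15.8% higher and 19.1% lower). The median difference was 0.04 over the 27 genes and -0.01 over all probe sets. The median size of the difference, regardless of sign, was 0.28 against 0.21. The groups did not overlap for 3 genes higher at 9 months (CD40LG, CD164 and CD99) and 4 lower (CD2, CD247, CD27 and CD38), where 6.54% and 8.64% of all probe sets were separated in those directions. In bulk samples, fewer cells of a type and less RNA per cell cannot be told apart. Time, age and spike-in set cannot be told apart either, since no set held arrays of both times. Without both time 0 females of set A, 13 genes passed.

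Of the 6 genes grouped under T and NK cell adhesion and signalling, 4 fell and 2 did not pass, where 19.1% of all probe sets fell. CD40LG, the T cell ligand of CD40, was grouped apart from them and rose, as described further on. CD247, the zeta chain through which the T cell receptor signals, had a lowest, median and highest value of 11.14, 11.39 and 11.77 at time 0. It was 10.91 and 10.56 in the control females at 9 months and 10.79 and 10.60 in the control males. Every control array lay below every time 0 array, and the difference was -0.72 (SE 0.14, adjusted p = 0.00044), 1.65-fold lower. Its 2 other tested probe sets gave -0.63 and -0.77, both past the threshold.

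CD27, a costimulatory receptor of T cells and memory B cells, showed the largest fall. It measured 7.03, 7.23 and 7.88 (lowest, median and highest) at time 0, against 6.87 and 6.25 in control females and 6.80 and 6.33 in control males. The groups were separate, with a difference of -0.81 (SE 0.16, adjusted p = 0.000646), 1.76-fold lower. CD2, the adhesion receptor for CD58, was at 10.97, 11.30 and 11.54 at time 0 and at 10.73, 10.71, 10.67 and 10.81 on the 4 control arrays. The control arrays were tightly grouped below all time 0 arrays, at -0.56 (SE 0.11, adjusted p = 0.000678). CD8B, the beta chain of the coreceptor of cytotoxic T cells, ranged from 8.18 to 9.43 with a median of 8.79 at time 0 and was 8.13, 7.92, 7.81 and 8.51 on the control diet. These groups overlapped through control male 25, and the difference was -0.67 (SE 0.18, adjusted p = 0.00859). CD69, an early activation marker (-0.03), and CD200 (0.01) did not pass.

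The wider T cell markers moved with these genes. The mean of the 8 measured T cell markers was 10.34 to 10.77 at time 0 and 10.04 to 10.26 on the control diet, with all 8 differences negative and 4 of them past the threshold. CD3G, a receptor chain (-0.88), and CD8A, the partner of CD8B (-0.85), were among those 4. Among 4 NK and cytotoxic markers, GNLY (-0.84) and GZMH (-0.55) fell, and the single measured B cell marker, CD79B, fell by 0.70 on the log2 scale. All 4 erythroid markers fell as well. The part of these shifts in the fall of the CD genes was not tested.

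CD38, an enzyme of the lymphocyte surface that consumes NAD, had the smallest p of all 27 genes. Its lowest, median and highest values at time 0 were 7.83, 8.20 and 8.64, and the control values at 9 months were 7.58 and 7.46 in females and 7.33 and 7.53 in males. No control array reached the time 0 range, and the difference was -0.72 (SE 0.12, adjusted p = 0.000136), 1.65-fold lower. CD180, a relative of the Toll-like receptors on B cells, differed by -0.21 (adjusted p = 0.371) and did not pass.

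CD40LG rose the most. It stood at 6.46, 7.07 and 7.49 (lowest, median and highest) at time 0, and at 8.24 and 8.12 in the control females and 7.92 and 8.10 in the control males. All 4 control arrays lay above all 10 time 0 arrays, and the difference was 0.97 (SE 0.20, adjusted p = 0.000746), 1.96-fold higher. Thus the T cell ligand of CD40 was higher while CD2, CD247, CD27 and CD8B were lower on the same arrays. CD5L gave -0.13 and did not pass.

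In the myeloid and antigen-presenting group 1 of 6 tested genes rose, and none fell, where 15.8% of all probe sets rose and 19.1% fell. This was CD83, a marker of mature dendritic cells and of activated lymphocytes. It was at 10.92, 11.54 and 12.26 at time 0 and at 12.22, 12.41, 12.35 and 12.17 on the control diet. Only the highest time 0 array, male 24, reached the control range, and the difference was 0.77 (SE 0.20, adjusted p = 0.00445). A second, separate probe set of CD83 gave 0.76 (adjusted p = 0.0534). The 5 others ranged from 0.04 for CD93, a glycoprotein of myeloid and endothelial cells, to 0.31 for CD300C, an activating myeloid receptor. Between them lay CD34, the progenitor antigen (0.13), CD80, a ligand of CD28 (0.22), and CD1E (0.24). The monocyte marker mean was 9.52 to 10.19 at time 0 and 9.83 to 10.29 on the control diet, with 8 of 10 differences positive and 2 past the threshold.

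The tetraspanins went in both directions, 3 higher, 1 lower and 2 not past the threshold. Of all probe sets 15.8% were higher and 19.1% lower. CD81, which joins the B cell coreceptor, fell from 11.27, 11.53 and 11.76 (lowest, median and highest at time 0) to 10.97, 10.65, 11.33 and 10.90, a difference of -0.54 (SE 0.14, adjusted p = 0.00507). Control male 16, at 11.33, overlapped the time 0 range. CD82 measured 6.19, 6.59 and 6.99 at time 0 against 6.89 and 7.19 in control females and 7.95 and 6.74 in control males, a difference of 0.60 (SE 0.16, adjusted p = 0.00622). Control male 16 was the high array, and without it the difference was 0.36 (adjusted p = 0.0548). Array weights also ended this call, at 0.31 (adjusted p = 0.0641).

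CD63, a tetraspanin of lysosomes and secretory granules, ran from 11.93 to 12.42 with a median of 12.10 at time 0, and was 12.61, 12.14, 12.69 and 12.60 on the control diet. Control female 8 lay within the time 0 range and the other 3 above it. The difference was 0.39 (SE 0.11, adjusted p = 0.0117), and 0.32 (adjusted p = 0.0612) without control female 18. CD9, which is abundant on platelets, ran from 9.86 to 11.20 with a median of 10.80 at time 0 and was 10.73, 11.28, 11.56 and 11.43 on the control diet. Its difference of 0.52 (SE 0.20) had an adjusted p of 0.049, and the call held in 11 of 27 alternatives. Over all 27 the value ranged from 0.41 to 0.68. CD53 (-0.12) and CD151 (-0.01) did not pass with their brightest probe sets. A dimmer probe set of CD53 fell by 1.00 on the log2 scale (adjusted p = 0.00102), while the third gave -0.01.

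Of the 3 adhesion and self-recognition genes, CD164 and CD99 rose, where 15.8% of all probe sets rose. CD164, a sialomucin of haematopoietic cells, ran from 11.29 to 11.94 with a median of 11.48 at time 0 and was 12.09, 12.11, 12.16 and 12.12 on the control diet. The 4 control arrays agreed within 0.03 (SD) and stood above all time 0 arrays, at 0.57 (SE 0.16, adjusted p = 0.01). CD99, an adhesion molecule of leukocyte migration, ran from 10.25 to 10.42 with a median of 10.33 and was 10.49, 10.46, 10.91 and 10.60 on the control diet. Its groups were separate at 0.28 (SE 0.08, adjusted p = 0.0115), but without control male 16 the difference was 0.18 (adjusted p = 0.0888). The pig gene table lists this CD99 entry as a non-coding RNA on chromosome Y, yet the probe set was as bright in females (mean 10.30 at time 0) as in males (10.36), so which gene it measures is uncertain. CD47, the self signal read by SIRPA, gave -0.14 and did not pass.

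Of the 2 genes grouped as complement regulators 1 rose, where 15.8% of all probe sets did. CD46 rose from 11.44, 11.57 and 11.77 at time 0 to 11.67, 11.93, 11.78 and 11.81. The groups overlapped with this brightest probe set, and the difference was 0.22 (SE 0.07, adjusted p = 0.0274). It was 0.16 (adjusted p = 0.14) without control female 8 and 0.22 (adjusted p = 0.0544) without control male 25. The dimmer probe sets of CD46 were higher on the control diet without overlap, where 6.54% of all probe sets were. They were at 8.30 to 8.49 against 7.52 to 8.26, and at 8.99 to 9.10 against 8.19 to 8.77. CD59, the inhibitor of the membrane attack complex, had a difference of 0.22 with a larger error (SE 0.17) and did not pass. Without control male 16 it was 0.45 (adjusted p = 0.0408), and with array weights 0.38 (adjusted p = 0.0371).

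**Figure D1:**
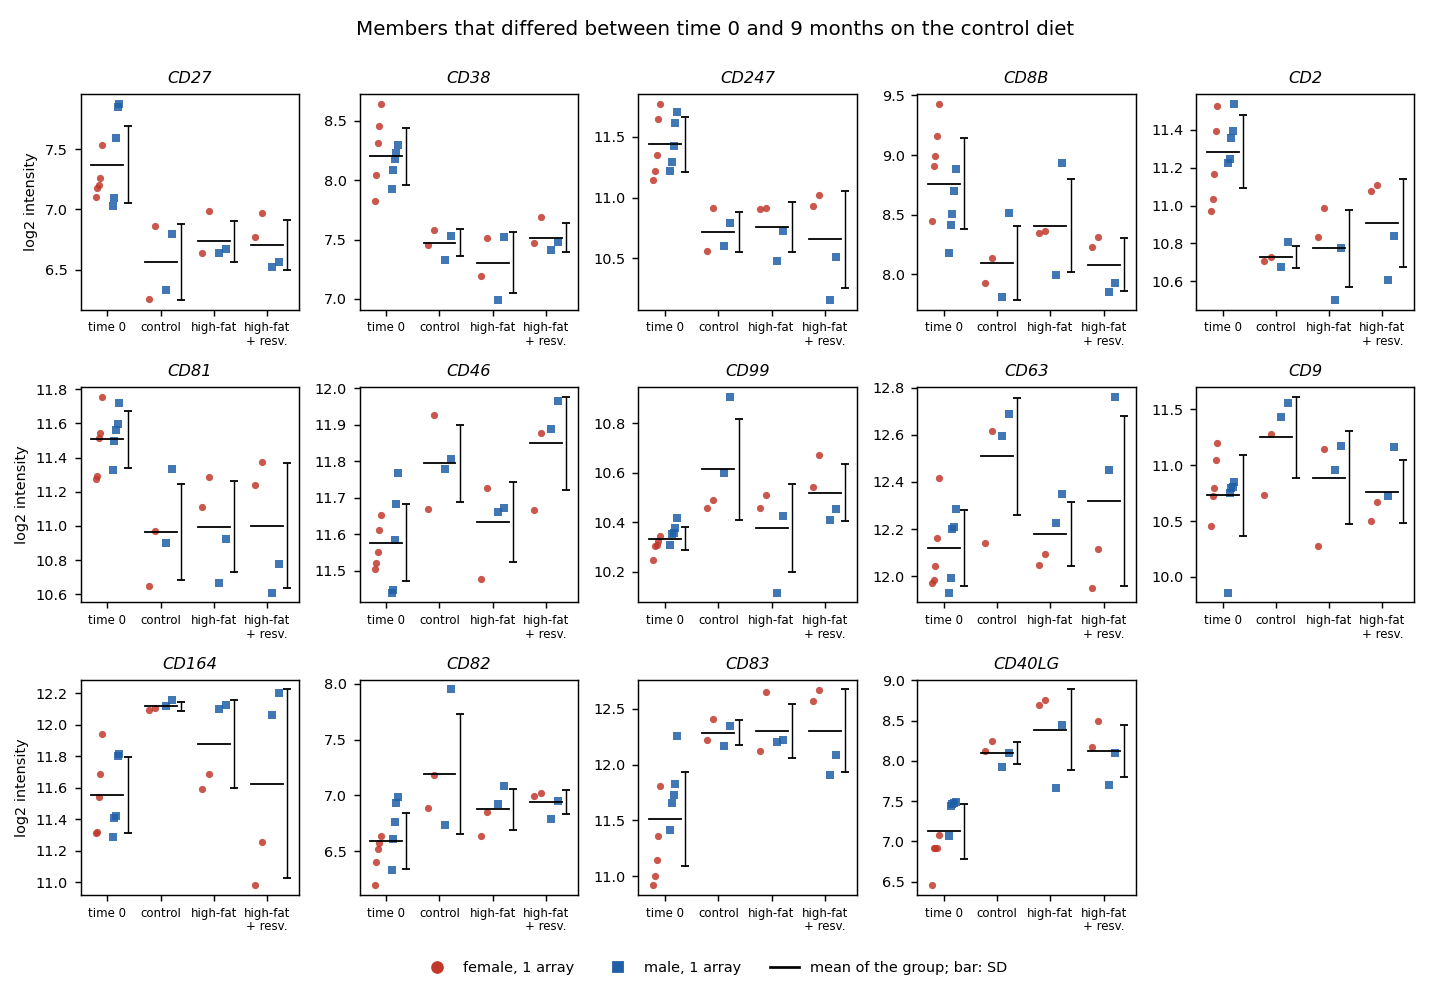
Log2 intensity of the 14 genes that passed between time 0 and the control diet at 9 months, ordered by their difference, with 1 point per array (red circles for females, blue squares for males), the group mean as a line and the SD as a bar, in the 4 conditions. The top row and CD81 are lower at 9 months, and the other 8 genes are higher on the control diet; for CD164 the females on both high-fat chows lie below the males.

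The pair of pigs with arrays at both times gave a view within animals. Of the 14 genes, all 14 moved in pig 8 in the direction of the groups, and 13 in pig 25. CD40LG went from 6.93 to 8.12 in pig 8 and from 7.49 to 8.10 in pig 25. CD247 went from 11.77 to 10.56 and from 11.30 to 10.60. The exception was CD8B, which went from 9.16 to 7.92 in pig 8 and from 8.41 to 8.51 in pig 25. These 4 arrays are also part of the group comparison, so they add no separate evidence.

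Partners and signalling proteins of the CD molecules were read from a second list, of which 25 genes were tested. Against time 0, 5 rose and 4 fell on the control diet, a share close to the 35% of all probe sets, so the list as a whole did not stand apart. CD58, the partner of CD2, rose by 0.59 (SE 0.08, adjusted p = 1.18e-05), and SIRPA, the receptor of CD47, by 0.68 (adjusted p = 0.0371). TRAF5, an adaptor of CD27 and CD40 signalling, rose by 0.75, the kinase LYN by 0.74 and CD86 by 0.33. SH2D1A, an adaptor of T and NK cell receptors, differed by -1.27 (SE 0.21, adjusted p = 0.000107), the kinase LCK by -0.51, the integrin chain ITGB1 by -0.33 and VAV1 by -0.22.

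A test for any difference among the 4 conditions passed 14 of 27 genes, where 39.1% of all probe sets passed. It held 13 of the 14 genes above, all but CD9, and added CD53. CD53 ran from 12.27 to 12.60 at time 0 and was 12.27, 12.27, 12.27 and 12.29 on the control diet, 12.13, 12.08, 12.21 and 12.26 on the high-fat diet, and 12.15, 12.07, 12.27 and 12.31 with resveratrol. The group means were 12.40 at time 0, 12.28 on the control diet, 12.17 on the high-fat diet and 12.20 with resveratrol. The F test gave CD53 an adjusted p of 0.00784, and it passed in none of the 4 pairs of conditions tested. The high-fat and resveratrol groups were not tested against time 0.

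The high-fat diet was set against the control diet at 9 months to ask for effects of fat consumption. No gene of 27 passed, and neither did any probe set on the array (0%). At an unadjusted p under 0.05 there were 3 genes, where 9.06% of all probe sets were below it. The median difference was -0.06 over the 27 genes and -0.0045 over all probe sets.

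The smallest p belonged to CD63, which was 12.05 and 12.09 in high-fat females and 12.35 and 12.23 in high-fat males, against 12.61, 12.14, 12.69 and 12.60 on the control diet. The difference was -0.33 (SE 0.14, adjusted p = 0.471). CD99 was 10.46, 10.51, 10.11 and 10.42 on the high-fat diet against 10.49, 10.46, 10.91 and 10.60, a difference of -0.24 (SE 0.10, adjusted p = 0.471). Both sets of values overlapped. CD46 (-0.16) and CD82 (-0.32) followed by p among the lower values, and CD1E (1.09), CD59 (0.31), CD8B (0.31) and CD40LG (0.29) had the smallest p among the higher.

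By brightest probe set CD53 was the only gene whose high-fat and control arrays did not overlap, at -0.11 (adjusted p = 0.717). Of all probe sets 2.97% were separated in that direction. A second probe set of CD53 was also separate, at 12.02 to 12.22 against 12.26 to 12.38. The dimmest was higher on high fat, at 7.29 to 7.65 against 6.24 to 7.57. With the mean over the CD53 probe sets the difference was 0.09. The high-fat and control values of CD8B and CD82 had the other sign within set D (-0.50 and 0.25), and those of CD40LG within set C (-0.47). Within set C, where 1 high-fat array stands against 3 control arrays, CD8B differed by 1.20. That high-fat array was male 23, the highest high-fat array for CD8B at 8.93, and the value describes that array and not the diet. The mean of the monocyte markers was 9.40 to 9.88 on the high-fat diet against 9.83 to 10.29 on the control diet, with all 10 differences negative and none past the threshold. Its part in the values of CD63 and CD99 was not tested.

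CD1E stood apart through 1 array. High-fat male 23 had 8.66, while the next highest array of any group was at 5.03 and the lowest at 3.91. Male 23 also had the largest 3' minus 5' difference of the actin controls, 3.09, whose part was not tested. With 1 array of this pig, animal and array cannot be told apart. The high-fat minus control difference of 1.09 (SE 0.50, adjusted p = 0.52) rested on the array of male 23 and was 0.18 without it. Within set C, where male 23 was the single high-fat array, the difference was 3.88, which describes that array and not the diet.

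Resveratrol was then tested on the background of the high-fat chow, a comparison that shares its high-fat arrays with the one above. Again 0 of 27 genes passed and 0% of all probe sets. At an unadjusted p under 0.05 there were 2 genes, against 6.63% of all probe sets. CD46 was 11.67 and 11.88 in the resveratrol females and 11.97 and 11.89 in the males, against 11.48, 11.73, 11.67 and 11.66 on the high-fat chow alone. The groups overlapped with this brightest probe set, at a difference of 0.21 (SE 0.09, adjusted p = 0.736). The dimmer probe sets of CD46 were higher with resveratrol without overlap, where 1.84% of all probe sets were, and did not pass. They were at 8.58 to 8.77 against 8.08 to 8.38, and at 8.96 to 9.45 against 8.52 to 8.80. CD59 was 8.53, 7.97, 8.68 and 9.01 with resveratrol against 9.07, 8.82, 8.86 and 9.14 without, a difference of -0.42 (SE 0.20, adjusted p = 0.756). Thus the 2 complement regulators had differences of opposite sign, neither past the threshold.

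CD180 was 5.99, 5.91, 5.85 and 5.88 with resveratrol and 5.76, 5.48, 5.45 and 5.83 without. By brightest probe set it was the only gene without overlap, at 0.28 (adjusted p = 0.862), where 1.84% of all probe sets were separated in that direction. The other values of smallest p were CD38 (0.21) and CD99 (0.14) on the higher side, and CD1E (-1.09, male 23 again), CD8B (-0.33) and CD5L (-0.19) on the lower.

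Against the control diet, the resveratrol group again had 0 of 27 genes past the threshold (0% of all probe sets), and 1 gene at an unadjusted p under 0.05 where 3.85% of all probe sets were. That gene was CD164, at -0.49 (SE 0.19, adjusted p = 1.00). Next by p were CD9 (-0.49), CD80 (-0.41) and CD63 (-0.19), and on the higher side CD69 (0.34), CD2 (0.18), CD27 (0.14) and CD46 (0.05). By brightest probe set all 27 pairs of groups overlapped, where 1.53% of all probe sets did not. A dimmer probe set of CD46 was higher with resveratrol without overlap, at 8.58 to 8.77 against 8.30 to 8.49, and did not pass.

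With 4 arrays per diet the intervals were wide, and a missed threshold does not show equal expression. For CD83 the 95% interval of high-fat minus control was -0.47 to 0.50, and for CD40LG -0.20 to 0.78. For CD53 it was -0.25 to 0.04 and for CD2 -0.23 to 0.32. None of the 25 related genes passed in the 3 diet comparisons. Those with the smallest p were LYN (-0.37) and SH2D1A (0.50) for high fat, ITGAM (0.62) and SH2D1A (-0.54) for resveratrol on high fat, and LYN (-0.38) and ITGAM (0.27) for resveratrol against control.

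**Figure D2:**
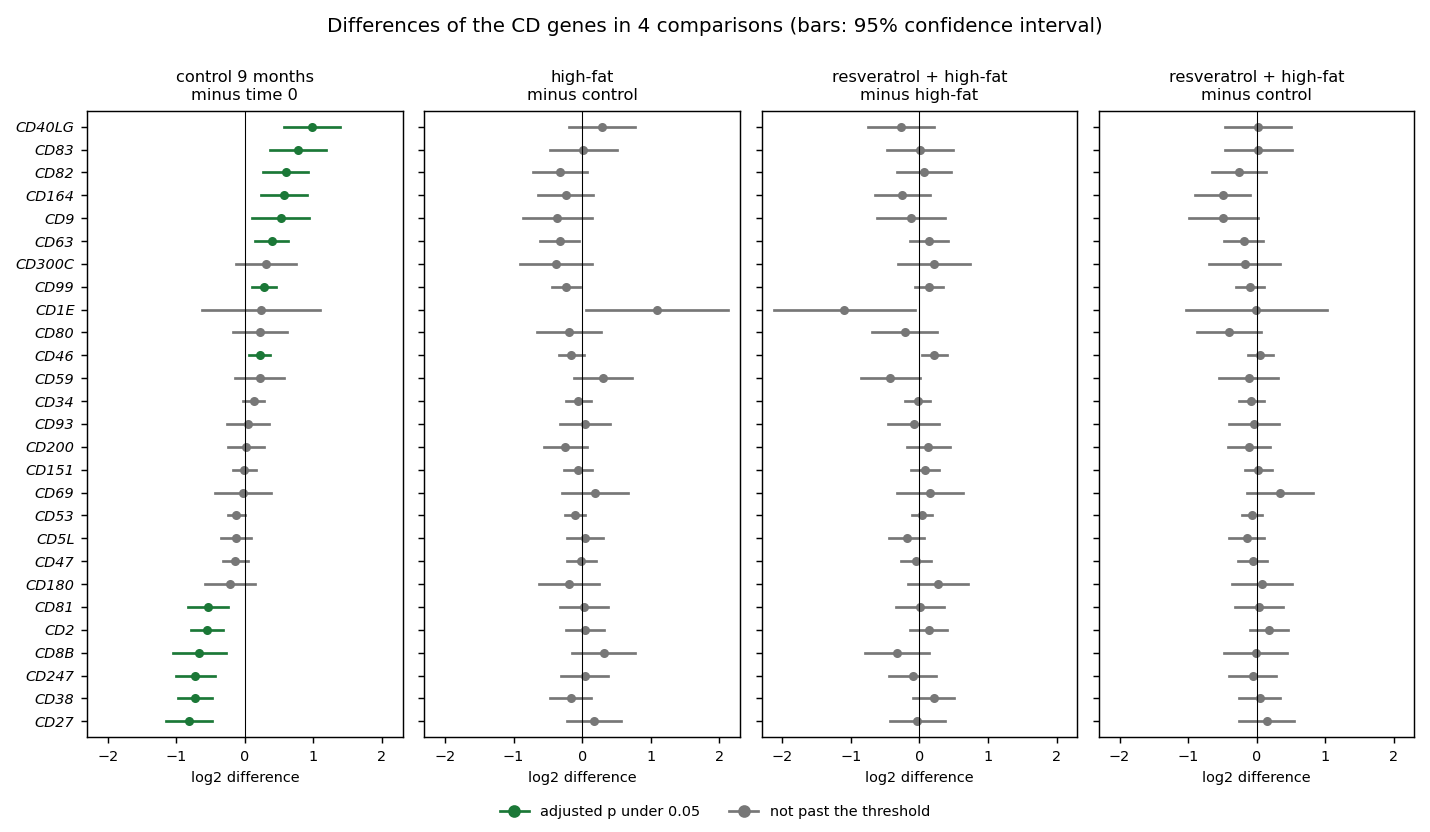
Log2 difference (point) and 95% confidence interval (bar) of the 27 tested genes in 4 comparisons, ordered by the difference between the control diet at 9 months and time 0, with green marking an adjusted p under 0.05. Green appears in the time panel alone, for 14 genes; in the 3 diet panels every gene is grey, and the widest bars belong to CD1E.

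The sexes were compared at each time. At time 0, 0 of 27 genes passed, where 1.07% of all probe sets did, and 7 genes had an unadjusted p under 0.05 (16.4% of all probe sets). The value nearest the threshold was CD40LG at -0.53 (SE 0.14, adjusted p = 0.0807), an X-linked gene. Its lowest, median and highest values were 6.46, 6.92 and 7.08 in females and 7.06, 7.46 and 7.49 in males, so the sexes met only at 1 female and 1 male. CD83 (-0.53), CD80 (-0.53) and CD59 (-0.41) followed by p among the values lower in females, and without female 17 the CD83 difference was -0.67 (adjusted p = 0.0277). CD180 (0.58), CD300C (0.64), CD8B (0.45) and CD9 (0.23) were the highest-ranked of the other sign. By brightest probe set CD180 and CD300C did not overlap between the sexes, where 1.74% of all probe sets were higher in females without overlap. A dimmer probe set of CD46 was lower in females without overlap, at 7.52 to 8.04 against 8.09 to 8.26. The share of all probe sets in that direction is not given here. Set A held 2 of the time 0 females and no male, so sex and spike-in set were partly confounded here. The highest CD180 array, female 10 (7.14), was in set A. Over the alternatives the CD180 difference ran from 0.32 to 0.65.

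At 9 months 3 of 27 genes passed between the sexes over the 3 diets, where 6.01% of all probe sets passed (3.07% higher and 2.94% lower in females). CD164 was lower in females, CD63 was lower in females and CD93 was higher in females. By brightest probe set all 27 pairs of sexes overlapped in range, where 1.27% of all probe sets did not. CD164 was the steadiest of the 3. Its female values were 12.09 and 12.11 on the control diet, 11.69 and 11.59 on the high-fat diet, and 10.98 and 11.26 with resveratrol. The male values were 12.16 and 12.12, 12.13 and 12.10, and 12.06 and 12.20 in the same order. Male values stayed within 12.06 to 12.20 on every diet, while the females were spread over more than 1 unit.

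The female minus male difference of CD164 was -0.51 (SE 0.11, adjusted p = 0.0148), 1.42-fold lower. Its 2 other probe sets gave -0.60 (adjusted p = 0.00192) and -0.53 (adjusted p = 0.00639). The call held in 22 of 25 alternatives. It was lost without resveratrol female 21, at -0.46 (adjusted p = 0.0535), and within sets C (-0.41, adjusted p = 0.369) and D (-0.52, adjusted p = 0.558), which hold few arrays each.

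CD63 ran from 11.95 to 12.61 with a median of 12.10 in the 6 females and from 12.23 to 12.76 with a median of 12.52 in the 6 males. The difference was -0.35 (SE 0.10, adjusted p = 0.0433), and the call held in 11 of 25 alternatives. CD93 ran from 8.19 to 8.84 with a median of 8.50 in females and from 7.88 to 8.58 with a median of 8.19 in males. The difference was 0.35 (SE 0.10, adjusted p = 0.0427) and the call held in 8 of 25 alternatives. A second probe set of CD93 gave 0.12 (adjusted p = 0.634). Next by p were CD40LG (0.42, adjusted p = 0.0637), CD247 (0.33) and CD81 (0.24) above 0, and CD80 (-0.47) and CD47 (-0.17) below it. Without high-fat male 26, which left male 23 as the only high-fat male, CD40LG was at 0.55 and CD1E at -1.34. The latter came through male 23.

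Markers of cell types also differed between the sexes at 9 months. The monocyte marker mean was 9.38 to 9.48 in resveratrol females and 10.12 to 10.19 in resveratrol males, 9.40 to 9.43 against 9.68 to 9.88 on the high-fat diet, and 9.83 to 10.09 against 9.99 to 10.29 on the control diet. All 10 monocyte markers were lower in females, 4 past the threshold. Of the 4 erythroid markers 3 were lower in females, and CD79B was higher by 0.97 (adjusted p = 0.00349). The erythroid mean ran from 8.14 to 8.20 in resveratrol females and from 9.83 to 10.06 in resveratrol males. The part of these differences in the values of CD164, CD63 and CD93 was not tested. Among the related genes TRAF5 (0.54), CD40 (0.58) and VAV1 (0.24) were higher in females and CD86 (-0.45) and THBS1 (-1.19), a secreted ligand of CD47, were lower.

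Whether a diet difference itself differed between the sexes was tested as an interaction, the female effect minus the male effect. No gene passed in any of the 3, where 0.0058%, 0.0116% and 0% of all probe sets passed for high fat, resveratrol on high fat, and resveratrol against control. For resveratrol against control 8 genes had an unadjusted p under 0.05, against 16.8% of all probe sets. The smallest p values belonged to CD47 (-0.60, SE 0.16, adjusted p = 0.0952), CD93 (0.88, SE 0.24, adjusted p = 0.0972), CD81 (0.92, adjusted p = 0.102), CD164 (-0.97, SE 0.28, adjusted p = 0.107), CD151 (0.50, adjusted p = 0.125) and CD99 (0.45, adjusted p = 0.162).

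CD47 was 11.23 and 11.18 in resveratrol females and 11.57 and 11.74 in resveratrol males, against 11.66 and 11.47 in control females and 11.28 and 11.55 in control males. Its dimmest probe set had the other sign in this interaction, while the remaining probe set kept it. The dimmest was 9.83 and 10.18 in resveratrol females and 9.79 and 9.95 in resveratrol males. In the controls it was 9.91 and 10.06 in females and 10.21 and 9.79 in males. CD93 was 8.84 and 8.55 in resveratrol females and 7.88 and 7.95 in resveratrol males, against 8.39 and 8.19 and 8.58 and 8.21 on the control diet. Both genes were chosen for the smallest p of this interaction, so their values are a description only. CD164 in females was lower with resveratrol than on the control diet by a difference of -0.98 (SE 0.20), with an adjusted p of 0.0739, and in males the difference was -0.01. Without control male 25, 6 of 27 genes passed this interaction, where 7.41% of all probe sets passed in the same fit: CD47 (-0.73), CD81 (1.13), CD82 (1.06), CD93 (1.07), CD151 (0.67) and CD99 (0.61). In that fit the control male group was 1 array, assumed to vary like the others.

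In the other interactions the 4 genes of smallest p on each side were CD99 (0.49), CD81 (0.71), CD151 (0.35), CD93 (0.47), CD1E (-1.96), CD47 (-0.34), CD164 (-0.44) and CD200 (-0.33) for high fat against control. At an unadjusted p under 0.05 there were 5 genes (11.7% of all probe sets). For resveratrol on high fat, with 1 gene at an unadjusted p under 0.05 (5.85% of all probe sets), they were CD1E (1.98), CD200 (0.58), CD93 (0.41), CD83 (0.44), CD5L (-0.46), CD164 (-0.54), CD47 (-0.26) and CD80 (-0.69). CD1E alone passed in these, without high-fat male 26, which left male 23 as the only high-fat male: -3.77 (adjusted p = 1.14e-05) and 3.79 (adjusted p = 1.55e-05).

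**Figure D3:**
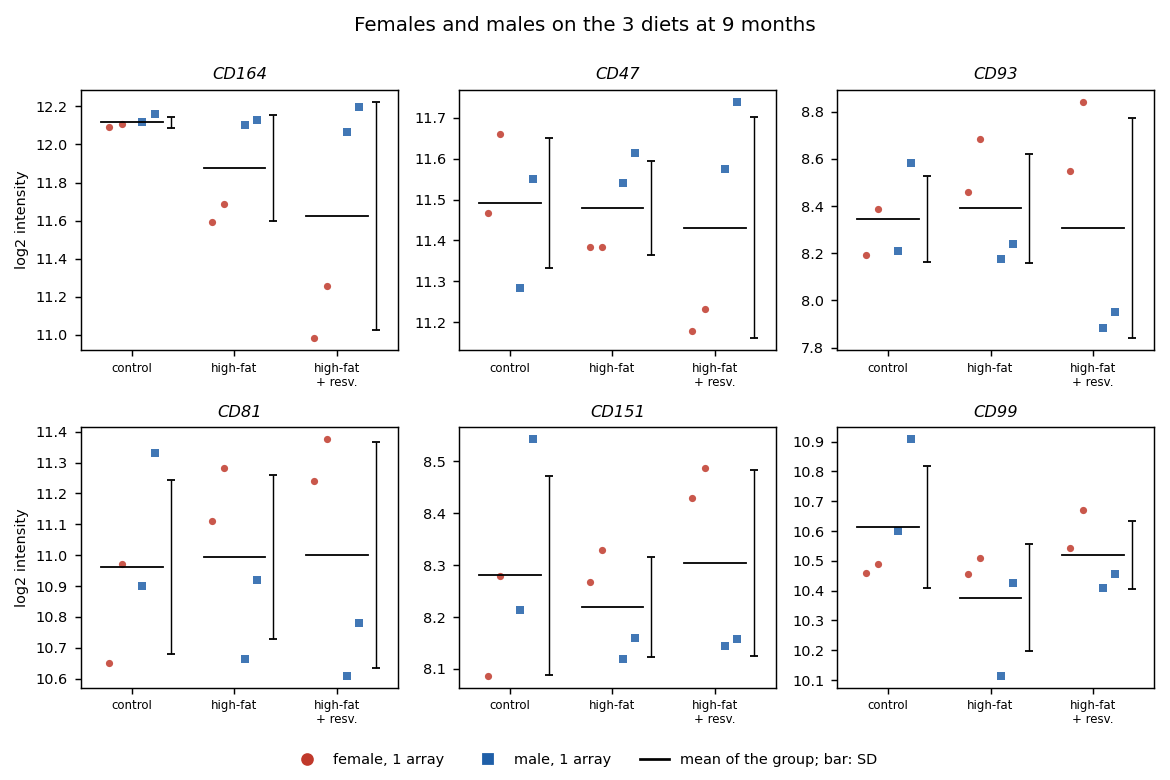
Log2 intensity of CD164, CD47, CD93, CD81, CD151 and CD99 at 9 months on the 3 diets, with 1 point per array (red circles for females, blue squares for males), the group mean as a line and the SD as a bar. The resveratrol females lie below the males for CD164 and CD47 and above them for CD93, CD81, CD151 and CD99, a pattern for which these genes were chosen. On the control diet the sexes are separate for CD164 and CD99 alone, with females lower in both.

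The sex difference at 9 months was also set against that at time 0, a comparison added after both were seen. Of 27 genes 3 passed, where 7.34% of all probe sets did. At time 0 the female mean of CD40LG was 6.86 ± 0.24 and the male mean 7.39 ± 0.18 (SD, n = 5 each). At 9 months they were 8.41 ± 0.27 and 7.99 ± 0.29 (SD, n = 6 each). Females were thus lower at time 0 and higher at 9 months, and the change in the sex difference was 0.95 (SE 0.19, adjusted p = 0.0098). This call held in all 31 alternatives, with values from 0.82 to 1.08. No alternative for this contrast took account of the spike-in set, and its part was not tested. Set A held 2 time 0 females and no male.

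CD83 had means of 11.25 ± 0.35 in females and 11.78 ± 0.31 in males at time 0 (SD, n = 5 each), and of 12.44 ± 0.23 and 12.15 ± 0.15 at 9 months (SD, n = 6 each). The change was 0.81 (SE 0.22, adjusted p = 0.0326). CD93 had means of 8.21 ± 0.22 and 8.39 ± 0.11 at time 0, and of 8.52 ± 0.23 and 8.17 ± 0.25 at 9 months, a change of 0.53 (SE 0.14, adjusted p = 0.0343). The calls of CD83 and CD93 each held in 19 of 31 alternatives. Leaving out 1 array ended that of CD83 for 12 of the 22 arrays in turn and that of CD93 for 11, with adjusted p up to 0.0739. CD164 missed the threshold at -0.52 (adjusted p = 0.0646).

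Markers of cell types moved in the same contrast. All 10 monocyte markers had negative values, 3 of them past the threshold, and 1 of 4 erythroid and 1 of 5 granulocyte markers were lower. CD79B was higher by 1.12 (adjusted p = 0.0118), and 2 of 8 T cell markers were higher, CD3D (0.63) and CD3E (0.61). None of the 4 NK and 5 platelet markers passed. Their part in the values of CD40LG, CD83 and CD93 was not tested.

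**Figure D4:**
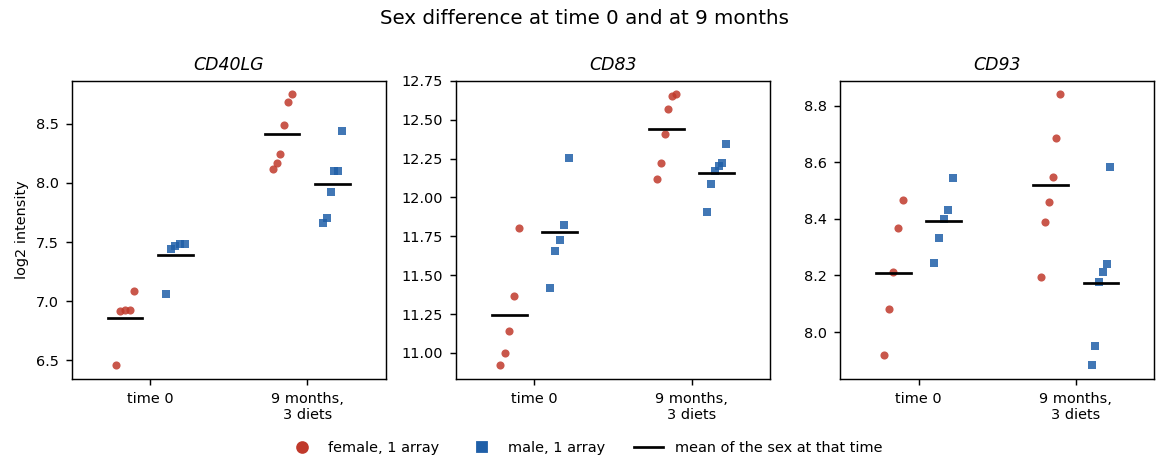
Log2 intensity of CD40LG, CD83 and CD93 at time 0 and at 9 months over the 3 diets, with 1 point per array (red circles for females, blue squares for males) and the mean of each sex as a line. In all 3 panels the female mean is below the male mean at time 0 and above it at 9 months.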

How the data were processed

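RNA of blood mononuclear cells, isolated from heparinised blood on a density gradient, was labelled and hybridised to Affymetrix porcine arrays, per the labels' protocols. The deposited values are linear intensities made with RMA in Affymetrix Expression Console 1.1 (with GCOS), per the submitters' processing notes. RMA subtracts background, normalizes between arrays and summarises the probes of a set. The log2 of the deposited intensities (floor 1; 0 values were below it) was tested in limma (version 3.58.1, R 4.3.3). The random block used statmod 1.5.0. A probe set was tested where log2 was above 5 on at least 2 arrays (17240 of 23999, 71.8%). No filter used the groups.

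Diet and time contrasts came from condition plus sex over all 22 arrays, and sex contrasts and interactions from 8 means of condition and sex. All tests were two-sided with Benjamini-Hochberg adjustment over all tested probe sets. The number of arrays limits the precision. Genes were named from the platform annotation: 10069 probe sets had 1 symbol, 198 several and 13732 none. All 28 genes were in the RefSeq gene table under the same symbol. The script was tested on simulated data.

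The members, gene lists and tests were chosen with earlier results of these data known. Named were the genes past the threshold, filled to 4 per direction by smallest p, those of the F test, the 3 highest and 3 lowest mean levels, and genes with a second probe set of the other sign where they passed. In the list of related genes, those past the threshold were named, filled to 2 per direction. Marker lists covered T, B, NK, monocyte, erythroid, granulocyte and platelet cells. Of the last 2, 0 of 5 granulocyte and 0 of 5 platelet markers passed between time 0 and the control diet, and 2 granulocyte and 0 platelet markers were lower in females at 9 months. Spike-in sets were inferred from the 42 poly-A control probe sets, by the largest gap within each time. No label names them as batches.

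Pigs 8 and 25 link time 0 and the control diet. The deviations of their arrays from the group means correlated at -0.06 and 0.20 over probe sets, and the consensus correlation of the pig block was -0.18. Alternatives covered the filter, transformation, normalization, moderation, array weights, sex term, arrays in the fit, probe set, spike-in set, pig block and each array left out. Fits with or within the spike-in set were made only for the diet contrasts and the sex difference at each time. They were not made for the interactions or the change in the sex difference.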

Additional observations from a re-analysis of the deposited data

Results flagged for a closer look

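In groups of 4 or 10 arrays, 9 of the 112 groups tested held an array far from the others, in 7 genes. Chance flags about 1 in 20 groups. CD1E was the clearest, at 8.66 in high-fat male 23, and control male 25 was the highest of its group at 4.85. CD180 was highest in time 0 female 10 (7.14), as was CD209 (4.87), which lay below the filter. CD27 was highest in high-fat female 27 (6.99). CD53 was highest in pig 25 both at time 0 (12.60) and on the control diet (12.29). CD5L was lowest in time 0 female 8 (4.89), and CD63 was lowest in control female 8 (12.14).

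The sex difference at 9 months minus that at time 0 passed the threshold for CD40LG (0.95), CD83 (0.81) and CD93 (0.53). This comparison was chosen after the sex differences of both times were seen, and the 9-month groups also differ from time 0 in age and diet. The spike-in sets were defined within each time, and the part of the spike-in intensity was not tested.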

How the results depend on the processing

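The number of genes past the threshold between time 0 and the control diet was 14, and 13 to 15 in other settings and 12 to 14 with 1 array left out. The F test gave 14, against 13 to 16 and 11 to 15. With the pig number as a replicate block the first count was again 14, and the sexes at 9 months again differed in 3 genes. The diet counts of 0 became 2 for high fat and 1 for resveratrol on high fat within spike-in set C, where CD1E of high-fat male 23 is included. Between the sexes at 9 months the count was 3, where 6.01% of all probe sets passed. The share of all probe sets is given here only for this fit and set C. The count became 1 without the filter, 6 with array weights and 1 with only the arrays of that time. It was 1 with the spike-in set as a term, 0 within set C (0.191% of all probe sets) and 0 within set D. With 1 array left out it was 0 to 4: 0 without resveratrol female 21, and 1 without control female 8, control male 25, high-fat females 27 or 30, high-fat male 23 or resveratrol male 4. At time 0 it was 0 to 1. The count for the change in the sex difference was 1 to 4, and was 1 without time 0 female 6, time 0 males 11 or 12, high-fat male 23, resveratrol female 21 or resveratrol male 5. The interaction counts were 0 to 1 for high fat, 0 to 1 for resveratrol on high fat, and 0 to 6 for resveratrol against control. The cause of these changes was not tested.

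Over all members, comparisons and alternatives, 335 of 6035 values had the other sign, 67 of them in settings that use the spike-in set, and 0 of the 335 belonged to a value past the threshold. Among the genes named in each comparison the sign turned for 7. For high fat these were CD8B (-0.50) and CD82 (0.25) within set D and CD40LG (-0.47) within set C. For resveratrol they were CD5L on high fat within set C (0.12), and CD69 (-0.18) and CD46 (-0.11) against control within set D. The interaction of CD47 for resveratrol on high fat was 0.0501 as a mean over its probe sets.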
